A study of Homo sapiens with 24 samples.

Results

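Added loss of KDM5C was examined in HK-2 cells in which YY1 was already low, by comparing 3 double-knockdown libraries with 3 shYY1 libraries, 6 of the 24 RNA-seq libraries of the series. The 6 libraries were chosen by their labels alone. HK-2 is an established line of human kidney proximal tubular epithelial cells, and the series also holds ACHN cells, a renal cancer line, with the same 4 groups in each line (a control hairpin called shCtrl here, shKDM5C, shYY1 and both hairpins). The study asked how cells that have lost KDM5C depend on YY1.

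The shYY1 cells carried a lentiviral hairpin against YY1 and were kept under puromycin. Double-knockdown cells were shYY1 cells infected again, with a KDM5C hairpin on a vector that also carries green fluorescent protein, and were selected by puromycin and by green fluorescence. The groups therefore differed in KDM5C and also in a further infection and a selection for green fluorescence, whose effects cannot be told apart from that of KDM5C here. Every cell compared carried the YY1 hairpin. Which of the designed hairpins was used for these libraries is not given in the sources used here, so hairpin off-targets were not tested. The labels number 3 repeats a group without saying that they came from separate cultures, and p-values then measure only the spread between these repeats.

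KDM5C is a histone demethylase that removes methyl groups from lysine 4 of histone H3, a mark found at active promoters and, in its lower methylated form, at enhancers. It is encoded on the X chromosome and is often mutated in clear cell renal carcinoma. YY1 is a zinc finger transcription factor that can activate or repress genes, contacts Polycomb and INO80 complexes, and binds promoters and enhancers of many housekeeping genes.

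Between 16395808 and 17544678 read pairs were counted on genes in the 6 libraries, and none of the 6 stood apart from its group. One library used only for comparison did: the counts of HK-2 shKDM5C replicate 1 gave a chi-square per degree of freedom of 123 and 129 against the other shKDM5C libraries, which gave 3.2 against each other. Expression is given as CPM, read counts scaled to library size with edgeR's TMM factors, and differences as log2 fold changes of double knockdown against shYY1. Epithelial and tubular markers were present, with 780 to 1300 CPM of KRT8 and 219 to 318 CPM of PAX8, a kidney lineage factor. Those of the mature proximal tubule were nearly absent, with at most 1 count of the endocytic receptor LRP2 and 2 counts of the regulator HNF4A in any library. Of the immune and endothelial markers only CD14 and PECAM1 passed the filter on low counts, with 48 to 126 and 2 to 29 counts a library, and CD3E and KDR had no count in any of the 6 libraries.

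The targeted gene was examined first. KDM5C (ENSG00000126012, chromosome X from 53191321 to 53225422 on GRCh38) was present at 260, 246 and 233 CPM in shYY1 and 68.2, 65.8 and 72.2 CPM in double-knockdown libraries. No library of one group came near the other, and the level fell by 1.83 on the log2 scale (SE 0.0584, edgeR adjusted p = 2.51e-17). In shCtrl libraries without any knockdown it had 193, 191 and 197 CPM. YY1 (ENSG00000100811, chromosome 14 from 100238298 to 100282792 on GRCh38) stayed low in both groups, at 62.1, 68.7 and 63.4 CPM in shYY1 and 76, 75.5 and 73.1 CPM in double-knockdown libraries, against 214, 215 and 203 CPM in shCtrl libraries. It was slightly higher in double-knockdown cells (log2 fold change 0.22 ± 0.0636 SE, edgeR adjusted p = 0.00645), a call that was lost with the trend of gene length taken out (adjusted p = 0.0664) and with all 4 HK-2 groups in the fit (adjusted p = 0.152).

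Relatives of the targeted genes moved too. KDM5B, a demethylase of the same family, had 124, 125 and 123 CPM in shYY1 and 192, 189 and 191 CPM in double-knockdown libraries. Its groups did not overlap, and it rose by 0.63 (SE 0.0507, edgeR adjusted p = 4.22e-10). For KDM5A, a further demethylase of the family, the log2 fold change was 0.13 and the test was not passed (edgeR adjusted p = 0.103), except without shYY1 replicate 1 (0.17, adjusted p = 0.0314). YY2, an intronless paralog of YY1, fell from 6.2 ± 1.03 to 3.6 ± 0.439 CPM (SD, n = 3) (log2 fold change -0.77, edgeR adjusted p = 0.00284), at a level where the libraries held few reads. Reads can be shared between YY1 and YY2, whose sequences are alike.

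**Figure D1:**
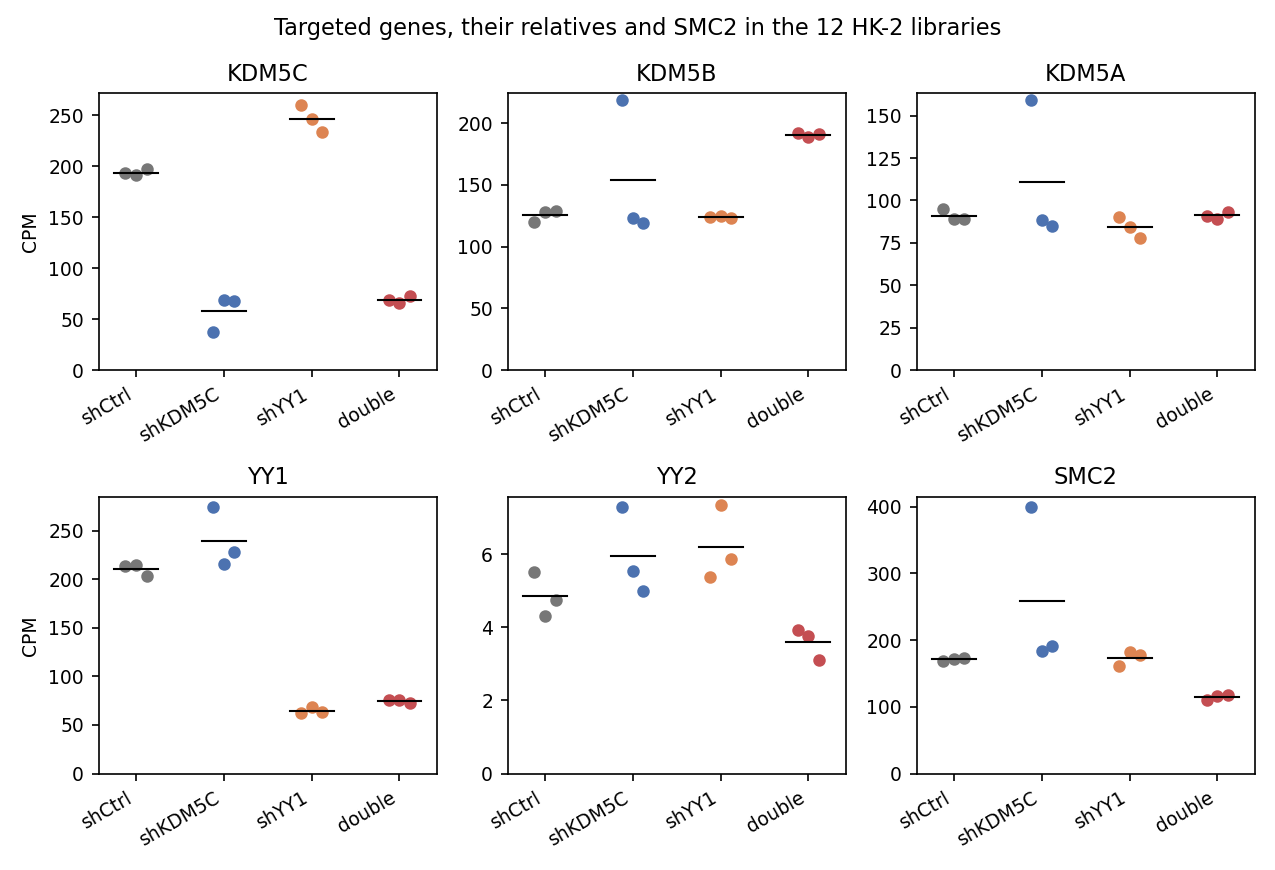
CPM (y axis, from 0) of KDM5C, KDM5B, KDM5A, YY1, YY2 and SMC2 in the 12 HK-2 libraries by group (x axis), with a point for each library and a bar at the group mean. KDM5C is near 69 CPM and KDM5B near 190 CPM in the 3 double-knockdown libraries, and shKDM5C replicate 1 stands apart with 219 CPM of KDM5B against 119 and 123 CPM in the other shKDM5C libraries.

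Of 15947 genes tested, 3653 were downregulated in double-knockdown cells (22.9%) and 3956 were upregulated (24.8%) at an adjusted p under 0.05 (edgeR). With a log2 fold change of at least 1.5 in size as well, 138 genes were downregulated (0.865%) and 359 were upregulated (2.25%). The changes were mostly small: the median log2 fold change was -0.45 among downregulated and 0.54 among upregulated genes, and 454 and 842 of them changed by more than a factor of 2. The group ranges of CPM did not overlap for 54.6% of all tested genes. A fit with all 4 HK-2 groups, which takes in shKDM5C replicate 1, called 1776 genes downregulated and 1989 upregulated.

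Among protein-coding genes whose groups did not overlap and whose higher group averaged 10 CPM or more, the largest fall was that of ZBED2, a zinc finger factor of epithelial cells (ENSG00000177494, chromosome 3 from 111592900 to 111595443 on GRCh38). ZBED2 had 14.4, 14.3 and 17.6 CPM in shYY1 and 0.417, 0.648 and 0.172 CPM in double-knockdown libraries, so the gene was close to silent in every double-knockdown library (log2 fold change -5.20 ± 0.257 SE, edgeR adjusted p = 6.64e-14). F3, tissue factor, which starts blood coagulation, had 107, 91.8 and 106 CPM in shYY1 and 19, 20.3 and 24.2 CPM in double-knockdown libraries. It fell by 2.26 on the log2 scale, and the groups did not overlap. GJA1, the gap junction protein connexin 43, went from 30 ± 4.33 to 6.87 ± 0.902 CPM (SD, n = 3). ID3, an inhibitor of helix-loop-helix factors and a target of BMP signals (ENSG00000117318, chromosome 1 from 23557918 to 23559794 on GRCh38), had 138, 128 and 143 CPM in shYY1 and 34.6, 30.5 and 30.9 CPM in double-knockdown libraries. This was a log2 fold change of -2.09 (edgeR adjusted p = 3.91e-17), and the 3 double-knockdown libraries lay far below the others. UNG, the glycosylase that removes uracil from DNA, had 116, 116 and 122 CPM in shYY1 and 28.5, 28 and 27.3 CPM in double-knockdown libraries. The groups of UNG did not overlap (log2 fold change -2.07). FGFR2, a receptor of fibroblast growth factors, changed from 89.1 ± 3.96 to 21.8 ± 4.37 CPM (SD, n = 3).

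The other downregulated genes of this kind were ADAMTS15, a protease of the matrix (log2 fold change -1.93), TNFRSF19, a receptor of the TNF family (-1.86), COL8A1, a short-chain collagen (-1.83), BRINP1 (-1.82) and TAGLN, an actin-binding protein of contractile cells (-1.81), beside KDM5C itself. All 12 kept their call in each alternative setting tried.

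Among genes picked by the same rule (10 CPM or more in the higher group, no overlap), the largest rise was that of MMP1, the interstitial collagenase (ENSG00000196611, chromosome 11 from 102789920 to 102798160 on GRCh38). MMP1 had 9.61, 10.2 and 10.5 CPM in shYY1 and 174, 159 and 175 CPM in double-knockdown libraries. Each double-knockdown library thus held more than 15 times the MMP1 of any shYY1 library (log2 fold change 4.07 ± 0.0749 SE, edgeR adjusted p = 2.69e-21). INHBE, a subunit of activins that is induced by amino acid stress, had 6.27, 6.09 and 8.61 CPM in shYY1 and 79, 76.4 and 67.9 CPM in double-knockdown libraries. All 3 double-knockdown values were far above the shYY1 values, by 3.42 ± 0.108 (SE) on the log2 scale. CSF2, the cytokine GM-CSF, rose from 2.67 ± 0.272 to 25.2 ± 0.828 CPM (SD, n = 3) (log2 fold change 3.24). C3, the central component of complement, was the most abundant of these genes, at 218, 197 and 191 CPM in shYY1 and 1280, 1400 and 1360 CPM in double-knockdown libraries. It rose by 2.74 on the log2 scale (SE 0.0559, edgeR adjusted p = 1.33e-20). LCN2, the iron-carrier-binding protein known as a marker of tubular injury, had 33.4, 28 and 31.9 CPM in shYY1 and 199, 226 and 195 CPM in double-knockdown libraries. The groups of LCN2 were far apart, with a log2 fold change of 2.74.

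NECAB2, a neuronal calcium-binding protein, rose from 0.932 ± 0.249 to 12.1 ± 1.13 CPM (SD, n = 3), and COL15A1, a basement membrane collagen, from 0.912 ± 0.139 to 10.3 ± 0.548 CPM (SD, n = 3). Neither gene had reached 1.2 CPM in a shYY1 library. ASB2, a subunit of ubiquitin ligases (log2 fold change 3.49), CD82, a tetraspanin of the cell surface (3.24), SEMA3A, a secreted guidance factor (2.99), and CA12, a carbonic anhydrase (2.71), also rose. The remaining gene picked by size, EIF3CL, was decided by 1 library: it had 2.03, 2.17 and 1.75 CPM in shYY1 and 3.33, 2.42 and 36.5 CPM in double-knockdown libraries. Without double-knockdown replicate 3 its log2 fold change was 0.54 (edgeR adjusted p = 0.184), and its reads can be shared with the near-identical EIF3C, so its value is uncertain.

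**Figure D2:**
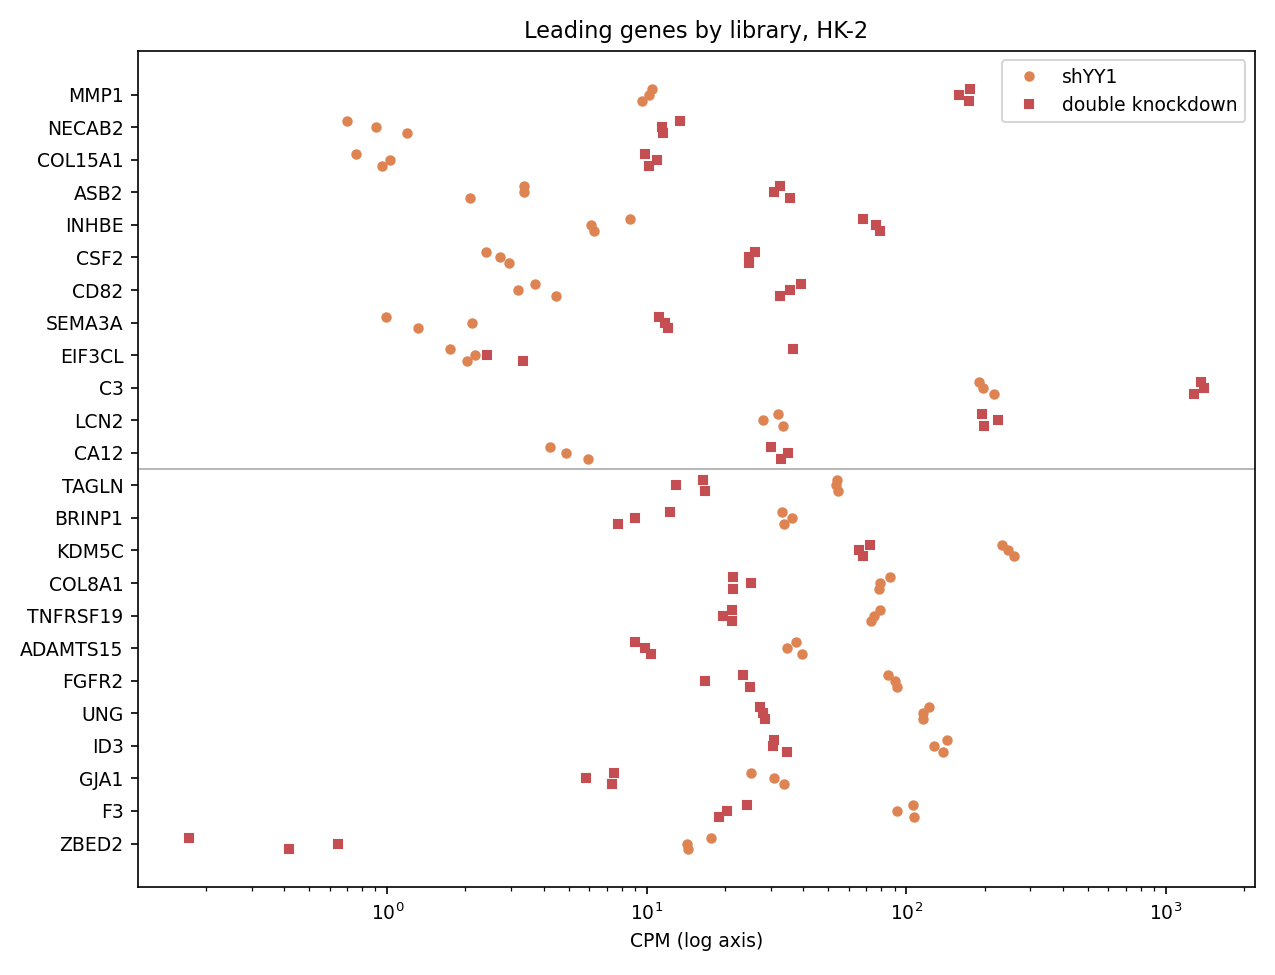
CPM on a log axis (x axis) of the 12 upregulated (top) and 12 downregulated genes (bottom) with the largest changes. Genes had to average 10 CPM or more in the higher group and to have no overlap between the groups. Circles are the 3 shYY1 libraries and squares the 3 double-knockdown libraries. The groups are apart for all 24 genes by this rule of choice. EIF3CL reaches 36.5 CPM in 1 double-knockdown library against 2.42 and 3.33 CPM in the others.

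Lists of genes were then read in the same fit, each as the number of members called in either direction beside the 22.9% and 24.8% of all genes, and the median log2 fold change of its tested members beside 0 for all genes. The lists carry no test of their own. Inflammatory genes stood out by their counts. NF-kB is a family of transcription factors held in the cytoplasm by inhibitors until cytokines, bacterial products or DNA damage release it, and its targets include chemokines, adhesion molecules and its own inhibitors. Of 28 tested members of the NF-kB and inflammatory list, 25 rose (89.3%) and 1 fell, with a median of 1.03. The member that fell was IL18, a cytokine of the IL-1 family (47.2 ± 1.58 to 27.2 ± 3.08 CPM (SD, n = 3), log2 fold change -0.79, edgeR adjusted p = 6.03e-08). Markers of immune cells, which also carry such genes, had a summed level of 2.97 to 4.04 CPM in shYY1 and 5.54 to 7.8 CPM in double-knockdown libraries, from CD14 for the most part. PTPRC, which all leukocytes carry, had at most 4 counts in a library.

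Promoters of these genes are shown because most of the list moved one way and because the letters of an NF-kB site can be read in them. The NF-kB motif, spelled GGGA, N, TT, N and CC in a row with N for any base, was searched on both strands in the 250 bases before the gene start in RefSeq's promoters (GRCh38.p14). It occurred in 10 of the 19 promoters matched to called members that rose (52.6%), in 1.42% of the promoters of all genes tested and in 1.27% of all 27305 promoters. The list was written from known NF-kB targets, so this is a description of its members and no independent evidence. In the following 30-base windows, written 5′ to 3′ on the strand of the gene, the match is in capitals, and a match on the other strand reads as its reverse complement.
VCAM1: tccccttgaaGGGATTTCCCtccgcctctg
TNFAIP3: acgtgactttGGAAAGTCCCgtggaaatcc
CXCL2: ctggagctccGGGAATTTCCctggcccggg
CXCL5: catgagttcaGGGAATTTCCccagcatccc
REL: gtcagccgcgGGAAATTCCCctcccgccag

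The window of VCAM1 lay at chr1:100719670-100719699 on the plus strand. The window of TNFAIP3 lay at chr6:137867182-137867211 on the plus strand. The window of CXCL2 lay at chr4:74099254-74099283 on the minus strand. The window of CXCL5 lay at chr4:73998749-73998778 on the minus strand. The window of REL lay at chr2:60881518-60881547 on the plus strand. These 5 genes were named for their windows after their values had been seen. The motif also occurred in promoters not shown, of genes whose rises were mostly smaller. Their log2 fold changes were 0.97 for CXCL3, 0.52 for IL6, 0.36 for IL32, 0.36 for NFKBIA and 0.17 for NFKBIZ. VCAM1, an adhesion molecule for leukocytes, had 1.13, 0.663 and 1.22 CPM in shYY1 and 5.71, 7.9 and 5.4 CPM in double-knockdown libraries. It rose by 2.65 on the log2 scale (edgeR adjusted p = 2.93e-08) from a very low level. TNFAIP3, which encodes the NF-kB inhibitor A20, had 28, 29 and 27.5 CPM in shYY1 and 111, 97.7 and 104 CPM in double-knockdown libraries. Each double-knockdown library was above every shYY1 library (log2 fold change 1.89). The neutrophil chemokines CXCL2 and CXCL5 changed by 1.09 and 0.74, and REL, an NF-kB subunit, by 0.67.

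Immediate early genes and feedback genes of growth factor signalling rose more often than they fell. Of 22 tested AP-1 and immediate early genes, which are switched on within minutes of growth factor or stress signals, 15 rose (68.2%) and 1 fell, with a median of 0.66. NR4A1, an orphan nuclear receptor, went from 1.21 ± 0.316 to 6.22 ± 0.315 CPM (SD, n = 3), KLF4, a zinc finger factor, from 6.43 ± 0.542 to 20.1 ± 0.656 CPM (SD, n = 3) and FOSB, a partner of JUN, from 5.55 ± 0.972 to 17.1 ± 0.63 CPM (SD, n = 3). MAFK, a small MAF protein, was the member that fell (log2 fold change -0.25, edgeR adjusted p = 0.00672), and with all 4 HK-2 groups in the fit it was not called (adjusted p = 0.527).

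Of 24 tested genes of EGF receptor, MET and MAPK feedback, 17 rose and 4 fell (median 0.50). The feedback genes IER3 (1.82), DUSP5 (1.39) and SPRED3 (1.83), which dampen or follow ERK signals, were the largest rises by log2 fold change. EGFR itself fell, from 471 ± 17.4 to 340 ± 5.29 CPM (SD, n = 3) (log2 fold change -0.46, edgeR adjusted p = 3.21e-08), as did HBEGF (-0.87) and NRG1 (-0.52), ligands of its receptor family.

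Among 18 MHC class I presentation genes, 15 rose (83.3%) and 1 fell, with a median of 0.56. HLA-B, which presents peptides to T cells, had 54.1, 55.7 and 65.3 CPM in shYY1 and 150, 143 and 158 CPM in double-knockdown libraries. HLA-B rose by 1.38 ± 0.068 (SE) on the log2 scale (edgeR adjusted p = 6.64e-14). TAP1, a subunit of the peptide transporter, changed by 1.08 and HLA-C by 1.07, with the reservation that HLA genes are alike and can share reads. Of 34 tested genes of DNA sensing and the interferon response, 17 rose and 3 fell (median 0.54). IFIT2 rose from 12.3 ± 0.792 to 36 ± 0.761 CPM (SD, n = 3) and IFI44L from 26 ± 1.14 to 74.9 ± 3.08 CPM (SD, n = 3). The median of this list was 0.33 without double-knockdown replicate 2.

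ATF4 is a transcription factor whose translation goes up when amino acids are short or unfolded proteins collect in the endoplasmic reticulum, and its targets take up and make amino acids or lead to cell death under lasting stress. Of 34 genes of this response, 26 rose (76.5%) and 1 fell, with a median of 0.48. CHAC1, which degrades glutathione, had 6.93, 7.35 and 7.21 CPM in shYY1 and 29.3, 29.4 and 27 CPM in double-knockdown libraries. DDIT3, the death-promoting factor CHOP, had 16.2, 15.3 and 17 CPM in shYY1 and 61, 57.8 and 56.6 CPM in double-knockdown libraries. Both were higher in every double-knockdown library than in any shYY1 library, with log2 fold changes of 2.00 and 1.86. TRIB3, a pseudokinase that curbs ATF4, went from 115 ± 8.41 to 319 ± 27.5 CPM (SD, n = 3). ATF5, a factor of the same family, was the member that fell (log2 fold change -0.83, edgeR adjusted p = 3.68e-06). SLC7A11, the cystine importer and also an ATF4 target, rose from 18.1 ± 1.93 to 48.8 ± 3.84 CPM (SD, n = 3), while in its own list, NRF2 and glutathione, 12 of 26 members fell and 6 rose. AKR1B1, an aldose reductase, fell there from 1500 ± 54.7 to 704 ± 56.7 CPM (SD, n = 3).

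Matrix and protease genes rose more often than they fell. Of 38 tested collagens, laminins and matrix genes, 22 rose and 6 fell (median 0.44). LAMB3, a chain of laminin-332, had 62.5, 54.7 and 50.7 CPM in shYY1 and 242, 245 and 257 CPM in double-knockdown libraries. The libraries of LAMB3 did not overlap (log2 fold change 2.16). TNC, tenascin C, went from 39 ± 4.05 to 139 ± 2.97 CPM (SD, n = 3). In the other direction, THBS1, thrombospondin 1, had 478, 470 and 459 CPM in shYY1 and 138, 127 and 136 CPM in double-knockdown libraries. Its log2 fold change was -1.80 (SE 0.052, edgeR adjusted p = 6.14e-18), and COL12A1 also fell (-1.74). DCN, decorin, was the list's largest rise but from a handful of reads, at 0.836, 0.241 and 0.116 CPM in shYY1 and 6.72, 7.96 and 7.24 CPM in double-knockdown libraries. DCN and LUM (log2 fold change 0.96) are also fibroblast markers, of which 2 of 5 tested rose and 1, THY1, fell. The summed level of these markers was 58.3 to 65.4 CPM in shYY1 and 95.6 to 104 CPM in double-knockdown libraries. PDGFRA, which defines many fibroblasts, had at most 5 counts in a library, and the part of such cells in the result was not tested.

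Of 18 metalloproteinase and plasminogen genes, 12 rose and 2 fell (median 0.45). PLAU, the urokinase that activates plasminogen, had 226, 262 and 246 CPM in shYY1 and 959, 821 and 880 CPM in double-knockdown libraries. Its receptor PLAUR changed alongside, from 17.7 ± 0.681 to 49.9 ± 3.75 CPM (SD, n = 3). MMP24 (log2 fold change -1.56) and ADAMTS1 (-0.81) fell.

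Among 35 TGF-beta and BMP genes, 16 rose and 9 fell (median 0.17, or 0.03 without shYY1 replicate 3). INHBA, the activin A subunit, rose from 170 ± 17.7 to 558 ± 45.2 CPM (SD, n = 3). BMP4, a ligand of the BMP branch, fell from 17.8 ± 2.83 to 6.02 ± 0.543 CPM (SD, n = 3), and ID1 and ID3, known BMP targets, fell too. ID1 had 200, 193 and 198 CPM in shYY1 and 79.3, 70.4 and 68.8 CPM in double-knockdown libraries.

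Keratins were lower. Of 10 tested keratins, 6 fell and none passed the test upwards (median -0.59); the log2 fold change was -1.02 for KRT7, -0.63 for KRT19 and -0.62 for KRT10. Of 6 tested epithelial markers, 4 of them keratins of the first list, 5 fell and 1 rose. EPCAM, a surface marker of epithelia, went from 53.1 ± 6.06 to 32.7 ± 1.59 CPM (SD, n = 3), whereas CLDN1, a tight junction claudin, rose from 414 ± 6.01 to 758 ± 1.96 CPM (SD, n = 3). The list of cadherins, junctions and EMT factors went the other way, with 12 of 31 members higher and 5 lower (median 0.20, or 0.07 without shYY1 replicate 1). In it CDH3, placental cadherin (-1.17), and ESRP2, a splicing factor of epithelia (-1.07), fell, while the claudin CLDN12 (0.73) and ZEB1, a repressor of epithelial genes (0.75), rose. CDH1 was below the filter, with 6 to 18 counts a library.

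**Figure D3:**
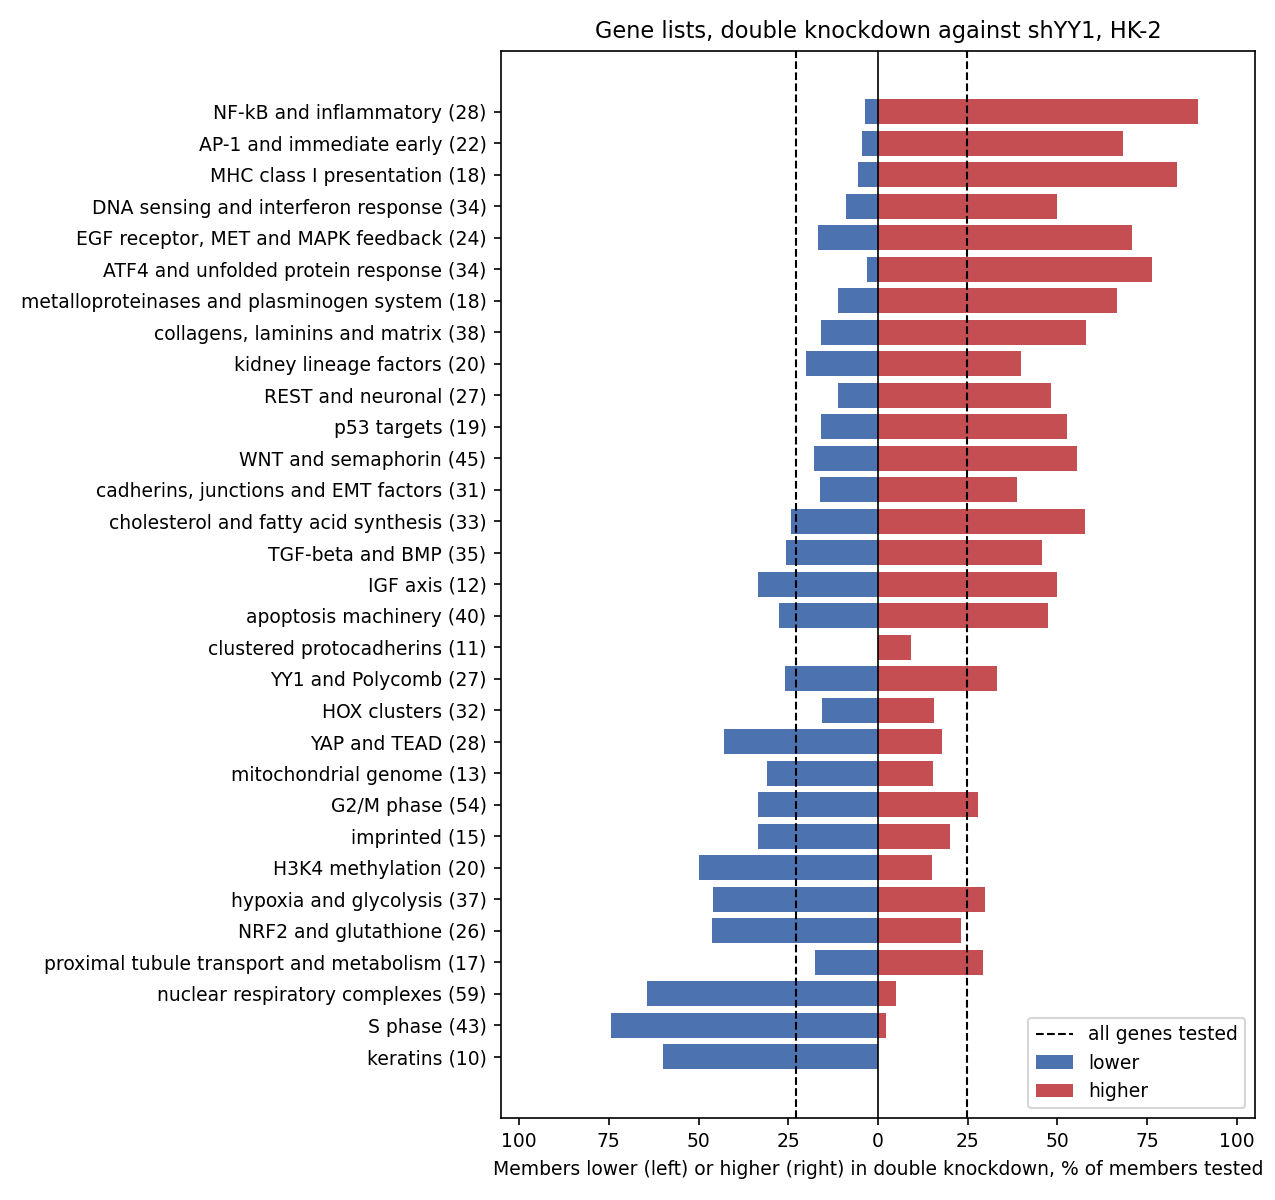
Share of tested members called lower (blue, left) or higher (red, right) in double-knockdown cells, in percent (x axis), for each list with at least 10 tested members (number in brackets), ordered by median log2 fold change. Dashed lines mark the 22.9% and 24.8% of all genes; NF-kB and inflammatory genes reach 89.3% higher and S phase genes 74.4% lower.

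Genes of DNA synthesis were lower as a list. Of 43 S phase genes, 32 fell (74.4%) and 1 rose, with a median of -0.50 that lay between -0.53 and -0.49 in every alternative. UNG, above, and GINS2, a subunit of the replicative helicase, had the largest falls; GINS2 had 37.5, 37.5 and 36.2 CPM in shYY1 and 13.3, 9.37 and 11.5 CPM in double-knockdown libraries. The fall of GINS2 was -1.70 ± 0.111 (SE) on the log2 scale. CDCA7, which recruits a nucleosome remodeller to replicating DNA, fell from 85.4 ± 4.44 to 41.3 ± 2.37 CPM (SD, n = 3). POLD3, a subunit of DNA polymerase delta, was the one that rose (log2 fold change 0.32), a call lost without shYY1 replicate 1 (adjusted p = 0.0502) and with all 4 HK-2 groups in the fit (adjusted p = 0.133). The summed level of the list was 4620 to 4750 CPM in shYY1 and 3170 to 3210 CPM in double-knockdown libraries.

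Many S phase genes are targets of E2F factors, so the E2F letters TTTNGCGC, with N for any base, were searched in the same promoters on both strands. They occurred in 4 of the 25 promoters matched to S phase genes that fell (16%), in 2.44% of those of all genes tested and in 1.54% of all promoters. Since the list holds known E2F targets, this is a description of its members and no independent evidence. S phase genes that did not fall were not counted apart. The first match in each of the 4 promoters is shown in capitals, in genes named after their values had been seen.
MCM6: agggctttgcaTTTGGCGCgaaatcccttt
CENPU: gatgcgggtggGCGCGAAAgcccggaaaac
HELLS: aaccgcaagctGCGCCAAAtctcgcgcagc
POLA1: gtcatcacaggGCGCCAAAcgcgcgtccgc

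The window of MCM6 lay at chr2:135876577-135876606 on the minus strand. The window of CENPU lay at chr4:184734289-184734318 on the minus strand. The window of HELLS lay at chr10:94545701-94545730 on the plus strand. The window of POLA1 lay at chrX:24693770-24693799 on the plus strand. MCM6, a helicase subunit, changed by -0.84, CENPU, a centromere protein, by -0.71, HELLS, the remodeller that CDCA7 recruits, by -0.56 and POLA1, the catalytic chain of the primase-polymerase, by -0.60 on the log2 scale, each lower in double-knockdown cells. Further letters were searched in the same way. The AP-1 letters TGANTCA occurred in 0 of the 12 promoters matched to AP-1 and immediate early genes that rose. For metalloproteinase and plasminogen genes that rose it was 2 of 7 (28.6%), beside 4.14% of all genes tested. The ATF4 letters TGATGNAA occurred in 2 of the 23 promoters of ATF4 genes that rose (8.7%), beside 1.46% of all genes tested. A YY1 motif, GCCATNTT, was found in 4.84% of the promoters of downregulated genes, 3.41% of those of upregulated genes and 4.23% of those of all genes tested (3.91% of all promoters). ID3 is shown because it held this motif and was among the leading genes.
ID3: ggccgaggcggGCCATTTTgaataaagagg

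The window of ID3 lay at chr1:23559551-23559580 on the minus strand. Mitotic genes did not share one direction: of 54 G2/M phase genes, 18 fell and 15 rose (median -0.06). CBX5 (-0.63), TMPO (-0.62) and CTCF (-0.52), which are proteins of chromatin and the nuclear envelope, fell, while the mitotic kinase NEK2 (0.49) and the spindle proteins CKAP2L (0.46) and GAS2L3 (0.38) rose.

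The 6 genes of cell division and cell fate that the study names were chosen on libraries of this series, so their direction is not independent evidence. SMC2, a core subunit of condensin, had 161, 182 and 177 CPM in shYY1 and 110, 116 and 117 CPM in double-knockdown libraries. It fell by 0.59 on the log2 scale (edgeR adjusted p = 7.78e-09), and with all 4 HK-2 groups in the fit this was not called (adjusted p = 0.0807). Its partner SMC4 had a log2 fold change of -0.10 and did not pass the test (edgeR adjusted p = 0.115), but passed it with the length trend taken out (-0.17, adjusted p = 0.00759) and without shYY1 replicate 1 (-0.13, adjusted p = 0.0428). JAM3, a junctional adhesion molecule, fell from 27.1 ± 1.23 to 16.2 ± 0.859 CPM (SD, n = 3) (log2 fold change -0.74, edgeR adjusted p = 1.58e-06). LMNB1, lamin B1, was lower by 0.45 and FOXM1, a transcription factor of mitotic genes, by 0.31 on the log2 scale. KNTC1, a kinetochore protein, was slightly higher (log2 fold change 0.20, edgeR adjusted p = 0.00471), which was not called with the trend of gene length taken out or with all 4 HK-2 groups in the fit.

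Genes of cell death and of the p53 pathway moved in both directions. Of 40 genes of the apoptosis machinery, 19 rose and 11 fell (median 0.15). BIRC3, an inhibitor of apoptosis that NF-kB induces, rose from 21 ± 1.45 to 73.2 ± 4.34 CPM (SD, n = 3). TNFRSF10B, the death receptor DR5, had 157, 145 and 158 CPM in shYY1 and 468, 469 and 480 CPM in double-knockdown libraries. TNFRSF10B rose by 1.63 on the log2 scale (edgeR adjusted p = 2.47e-17). PMAIP1, the death-promoting protein NOXA, rose (1.24) and the survival gene BCL2 fell (-1.24). Of 19 p53 targets, 10 rose and 3 fell; GDF15, a stress cytokine, had 76.5, 72.2 and 75.8 CPM in shYY1 and 286, 283 and 253 CPM in double-knockdown libraries. SESN2 also rose (1.65) while MDM2, the regulator of p53, fell (-0.37). GDF15, SESN2 and TNFRSF10B are also known to respond to ATF4 or CHOP.

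Energy metabolism was partly lower. Of 59 nuclear genes of the respiratory complexes, 38 fell (64.4%) and 3 rose, with a median of -0.26; UQCR10, of complex III, went from 59.2 ± 6.87 to 23.8 ± 4.38 CPM (SD, n = 3) and NDUFS6, of complex I, from 65.2 ± 14.8 to 33.2 ± 4.31 CPM (SD, n = 3). The 13 genes of the mitochondrial genome had a median of -0.05. In the hypoxia and glycolysis list 17 of 37 members fell and 11 rose: the glycolytic genes LDHA (-0.76) and PGAM1 (-0.76) fell, and the glucose transporter SLC2A3 had 67.7, 69.7 and 63.1 CPM in shYY1 and 406, 392 and 422 CPM in double-knockdown libraries. That was a log2 fold change of 2.61 (SE 0.0569, edgeR adjusted p = 3.89e-20). Of 33 genes of cholesterol and fatty acid synthesis, 19 rose and 8 fell (median 0.17). MSMO1, a sterol oxidase, changed by 0.97 and INSIG1, the sterol sensor partner, by 0.86, and HMGCS1, at the entry of the pathway, fell (-1.01).

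Chromatin regulators themselves were among the downregulated genes. Of 20 genes of H3K4 methylation, 10 fell (KDM5C, the target, among them) and 3 rose. HCFC1, a cofactor of the SET1 methyltransferases, had 505, 437 and 417 CPM in shYY1 and 282, 304 and 278 CPM in double-knockdown libraries. SETD1A, one of those enzymes, fell (-0.53) and KMT2C, an enhancer methyltransferase, rose (0.45, not called with all 4 HK-2 groups in the fit, adjusted p = 0.136). Of 27 YY1 and Polycomb genes, 9 rose, among them JARID2 (0.84), and 7 fell, among them CBX8 (-0.69). With all 4 HK-2 groups in the fit 3 rose and 3 fell, and CBX8 was not called (adjusted p = 0.152). Among 32 HOX genes 5 rose and 5 fell, which is below the share of all genes in either direction, and 1 of 11 tested clustered protocadherins was called.

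Further lists did not share a direction. Some rose more often than all genes. YAP and TEAD genes (42.9%) and imprinted genes (33.3%) fell more often than the 22.9% of all genes. Of 45 WNT and semaphorin genes, 25 rose and 8 fell; the WNT inhibitor DKK1 fell from 36.2 ± 2.11 to 12.4 ± 3.18 CPM (SD, n = 3). Of 28 YAP and TEAD genes, 12 fell and 5 rose; CCN2, a classical target, fell (-0.85), as did NF2, an upstream inhibitor (-0.98), and NT5E, the ectonucleotidase CD73, rose (1.83). Of 12 genes of the IGF axis, 6 rose and 4 fell; PAPPA2, a protease that frees IGF, had 5.31, 5.06 and 6.98 CPM in shYY1 and 25.5, 27.4 and 28 CPM in double-knockdown libraries, and IGFBP3 fell from 102 ± 6.47 to 47.3 ± 2.62 CPM (SD, n = 3). Among 27 genes of REST and neurons 13 rose and 3 fell; VGF, a secreted neuropeptide precursor, went from 15.6 ± 0.978 to 66.9 ± 4 CPM (SD, n = 3) and NEFH, a neurofilament, from 143 ± 7.04 to 51.5 ± 4.86 CPM (SD, n = 3). Of 20 kidney lineage factors 8 rose and 4 fell, with SALL1 at a log2 fold change of 1.08, of 17 proximal tubule genes 5 rose and 3 fell, of 15 imprinted genes 5 fell and 3 rose, with PEG10 at -1.01, and of 8 tested germline genes 3 rose and 1 fell.

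With all 4 HK-2 groups in 1 fit, fewer members passed the test in most lists, and several counts fell by more than 1.5 times. Inflammatory genes then had 14 upregulated members in place of 25, interferon genes 11 in place of 17, AP-1 genes 9 in place of 15, cholesterol and fatty acid genes 9 in place of 19, WNT and semaphorin genes 13 in place of 25, and TGF-beta and BMP genes 8 in place of 16. The respiratory complexes had 17 downregulated members in place of 38, G2/M genes 4 in place of 18, H3K4 methylation genes 3 in place of 10, and NRF2 genes 6 in place of 12. For S phase genes the fit gave 27 downregulated and for ATF4 genes 19 upregulated members. Beside the losses given above, CBX5 (adjusted p = 0.0566), GAS2L3 (0.187), MDM2 (0.298) and KRT10 (0.198) were not called in that fit. Single genes named only for their promoters, such as VCAM1, CXCL3, IL6 and MCM6, and THY1 were not followed in the alternatives. Whether they kept their calls is therefore not given. In every other alternative at least 21 inflammatory genes, 26 ATF4 genes and 15 AP-1 genes were upregulated, and at least 31 S phase genes and 33 respiratory genes downregulated.

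Length and position went with the calls. With genes sorted by length into 5 equal groups, 11.7% of the shortest genes were upregulated and 37.1% of the longest, while the downregulated share was 21.5% and 20.1%. With the trend of gene length taken out of each library the median went from -0.26 to -0.25 for respiratory complexes, from -0.50 to -0.49 for S phase genes, from 0.48 to 0.46 for ATF4 genes and from 1.03 to 1.10 for inflammatory genes. It moved more, for its size, for matrix genes (0.44 to 0.34), H3K4 methylation genes (-0.14 to -0.22), the IGF axis (0.16 to 0.05), YAP and TEAD genes (-0.02 to -0.09) and imprinted genes (-0.08 to -0.14), and it changed sign for the mitochondrial genome (-0.05 to 0.04) and germline genes (0.03 to -0.02). By chromosome, 34.1% of the 1600 tested genes of chromosome 1 were upregulated and 18.6% downregulated. The short arm had 31.9% upregulated with a median log2 fold change of 0.07. The long arm had 37.0% upregulated with a median of 0.14, against -0.01 on other chromosomes. Medians in windows of 20 megabases varied within each arm. On the short arm they ran from 0.01 to 0.12 below 100 megabases, and the median was 0.20 at 100 to 120 megabases. The window at 120 to 140 megabases, where the arms meet, held 11 tested genes (median 0.46). On the long arm they ran from 0.09 to 0.20 between 140 and 240 megabases. At 240 to 260 megabases, with 45 tested genes, the median was -0.14. The long-arm median was 0.13 to 0.14 in each of the 3 double-knockdown libraries, and 0.00 for shYY1 against shCtrl. Whether the copy number of chromosome 1 differs was not tested.

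The effect of KDM5C loss was then set beside that in cells with normal YY1, shKDM5C against shCtrl in HK-2 cells, which uses 6 other libraries. In that comparison 106 genes fell and 108 rose, or 1808 and 1910 without the outlying shKDM5C replicate 1. Genes are not independent replicates, and the following is a description. Over 15453 genes the effects with and without YY1 knockdown had a Pearson correlation of 0.242 and a Spearman correlation of 0.236, or 0.256 and 0.268 without the outlying library.

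The difference itself was tested over all 12 HK-2 libraries, and 1642 of 17093 genes (9.61%) had an effect of KDM5C depletion that differed with YY1 knockdown (752 lower, 890 higher; adjusted p under 0.05, edgeR). Without shKDM5C replicate 1 there were 5065 (2415 lower, 2650 higher), and without double-knockdown replicate 1 there were 957. The double-knockdown side alone carries the second infection and the green fluorescence selection, which cannot be told apart from the state of YY1 in this difference. The test shares the 6 libraries of the double-knockdown comparison. It was passed in the same direction by 57 of the 138 genes downregulated past the fold threshold and 154 of the 359 upregulated ones.

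The genes given next were picked for the size of this difference, 3 in each direction. They also had to be called in the double-knockdown comparison, with no overlap there and 10 CPM or more in the higher group. Their large differences follow in part from this choice. Without YY1 knockdown, MMP1 had 6.68, 6.78 and 8.34 CPM in shCtrl and 7.57, 5.17 and 5.21 CPM in shKDM5C libraries, and only the double-knockdown libraries held 159 CPM or more (difference of log2 fold changes 4.36, edgeR adjusted p = 7.94e-07). IL11, a cytokine of the IL-6 family, had 10.3, 11.3 and 8.08 CPM in shCtrl and 0.643, 4.38 and 3.67 CPM in shKDM5C libraries, and with YY1 knockdown 5.85, 6.81 and 5.7 CPM in shYY1 and 35, 28.4 and 35.9 CPM in double-knockdown libraries. It was lower in each shKDM5C library than in shCtrl, without passing the test there (log2 fold change -1.74, edgeR adjusted p = 0.21), and it rose with YY1 knockdown. The difference was 4.16 (edgeR adjusted p = 0.000484), or 3.74 without shKDM5C replicate 1. WNT9A, a secreted WNT ligand, had 6.23, 4.31 and 3.75 CPM in shCtrl and 0.5, 1.37 and 0.932 CPM in shKDM5C libraries, and with YY1 knockdown 3.46, 3.37 and 2.68 CPM in shYY1 and 10.1, 9.43 and 12.7 CPM in double-knockdown libraries. It differed by 4.06 (edgeR adjusted p = 0.000103). ZBED2 fell in either state, with a log2 fold change of -1.33 without and -5.20 with YY1 knockdown (difference -3.88). ID3 had 103, 94.8 and 113 CPM in shCtrl and 68.1, 234 and 234 CPM in shKDM5C libraries, so shKDM5C replicate 1 lay below and the other shKDM5C libraries above shCtrl, while the double knockdown was below shYY1 (difference -2.89, or -3.26 without that library). KITLG, the ligand of the receptor KIT, had 119, 117 and 110 CPM in shCtrl and 256, 151 and 161 CPM in shKDM5C libraries, and with YY1 knockdown 161, 179 and 157 CPM in shYY1 and 65.8, 66.8 and 60.9 CPM in double-knockdown libraries. The difference for KITLG was -2.07 (edgeR adjusted p = 0.00022).

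**Figure D4:**
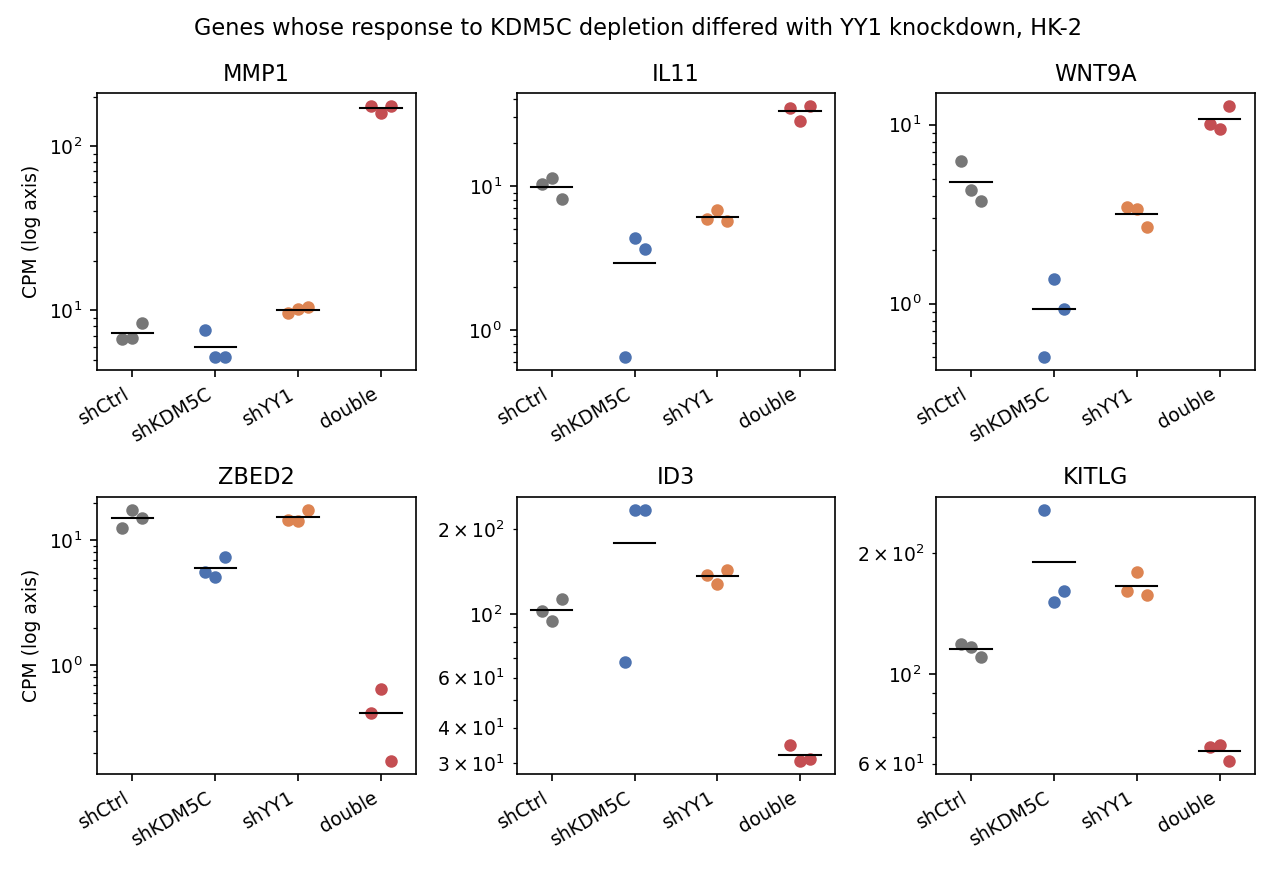
CPM on a log axis (y axis) of MMP1, IL11, WNT9A, ZBED2, ID3 and KITLG in the 12 HK-2 libraries by group (x axis), with a point for each library and a bar at the group mean. The genes were picked for the size of their difference with YY1 knockdown. MMP1 is at 5.17 to 10.5 CPM in 9 libraries and at 159 to 175 CPM in the 3 double-knockdown libraries.

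For KDM5C itself the difference was -0.10 and did not pass the test (edgeR adjusted p = 0.843), and without shKDM5C replicate 1 it was -0.32 (adjusted p = 0.00244), a larger fall with YY1 knockdown. JAM3 (-0.70, adjusted p = 0.00949), SMC2 (-1.19, adjusted p = 0.0352) and YY2 (-1.07, adjusted p = 0.0339, all edgeR) had lower effects with than without YY1 knockdown. The differences of SMC2 and of YY2 were each not called in 10 of 16 alternatives (adjusted p up to 0.0869 and 0.0917), and that of JAM3 in 1 of 16. For SMC2 the outlying library held 400 CPM against 183 and 191 CPM in its group, and without it the difference was -0.72 (adjusted p = 1.45e-08).

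Lists were set beside each other in comparisons that share no library. With shKDM5C replicate 1 left out, shKDM5C against shCtrl called 7 S phase genes lower and 3 higher of 43, with a median of 0.00, beside 10.9% and 11.5% of all genes, where the double knockdown against shYY1 called 32 and 1. Matrix genes had 19 lower and 8 higher of 37 without YY1 knockdown (median -0.26) and 6 lower and 22 higher of 38 with it. Inflammatory genes had 16 higher and 6 lower of 29 (median 0.25), and keratins were lower in both, 4 of 9 and 6 of 10. The test of the difference over all 12 libraries was passed by 16 of 43 S phase genes, all with a lower effect, by 12 of 34 ATF4 genes, all higher, and by 15 of 39 matrix genes higher and 4 lower, beside 9.61% of all genes.

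The same comparison in ACHN cells used 6 other libraries. There, 5362 genes were downregulated and 5248 upregulated of 16414. Over 14627 genes the effects in the lines had a Pearson correlation of 0.203 and a Spearman correlation of 0.223. Of the genes downregulated in HK-2 cells and tested in both lines, 51.5% were downregulated in ACHN cells as well, which is 37.7% of the ACHN genes, and 23.9% were upregulated there, beside 32.7% and 32% of all genes tested in ACHN cells. Of those upregulated in HK-2 cells, 48.6% were upregulated in ACHN cells, 36.8% of the ACHN genes, and 25.7% were downregulated. A test of the difference between the lines called 8253 of 17953 genes (46%; adjusted p under 0.05, edgeR).

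S phase genes were lower in both lines, with 33 of 43 called in ACHN cells (median -0.58). G2/M genes were called lower for 50 of 54 in ACHN cells (median -0.53) and 18 of 54 in HK-2 cells, and 44 of the 54 had a higher effect in HK-2 than in ACHN cells in the test of the difference. ATF4 genes differed in direction: 21 of 34 fell in ACHN cells (median -0.31), and for 27 of 34 the effect was higher in HK-2 cells. Cholesterol and fatty acid genes did so too, with 23 of 33 lower in ACHN cells (median -0.59) and 26 of 33 with a higher effect in HK-2 cells. The p53 targets rose in ACHN cells for 17 of 20, with a median of 1.08. Of the 12 leading downregulated HK-2 genes, 11 fell in ACHN cells and COL8A1 rose (2.48 on the log2 scale). KDM5C, which the added hairpin targets in both lines, is among the 11. Of the 9 leading upregulated genes tested in ACHN cells, 6 rose and 2 fell, NECAB2 and LCN2 (LCN2 by -0.85 on the log2 scale).

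The 6 genes picked for their difference between the lines held 3 counts or fewer in at least 1 ACHN library, so no difference of folds is given for them. One of them is NRK, a kinase on the X chromosome. NRK had 53.8, 57.4 and 56.1 CPM in shYY1 and 22, 19.2 and 19.1 CPM in double-knockdown libraries in HK-2 cells, a log2 fold change of -1.46. In ACHN cells it had 0.0523, 0.159 and 0.165 CPM in shYY1 and 77.8, 86.5 and 76.2 CPM in double-knockdown libraries, the opposite direction, with only 1 to 3 counts in each ACHN shYY1 library. KDM5C fell less in ACHN than in HK-2 cells (log2 fold change -1.15 against -1.83).

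**Figure D5:**
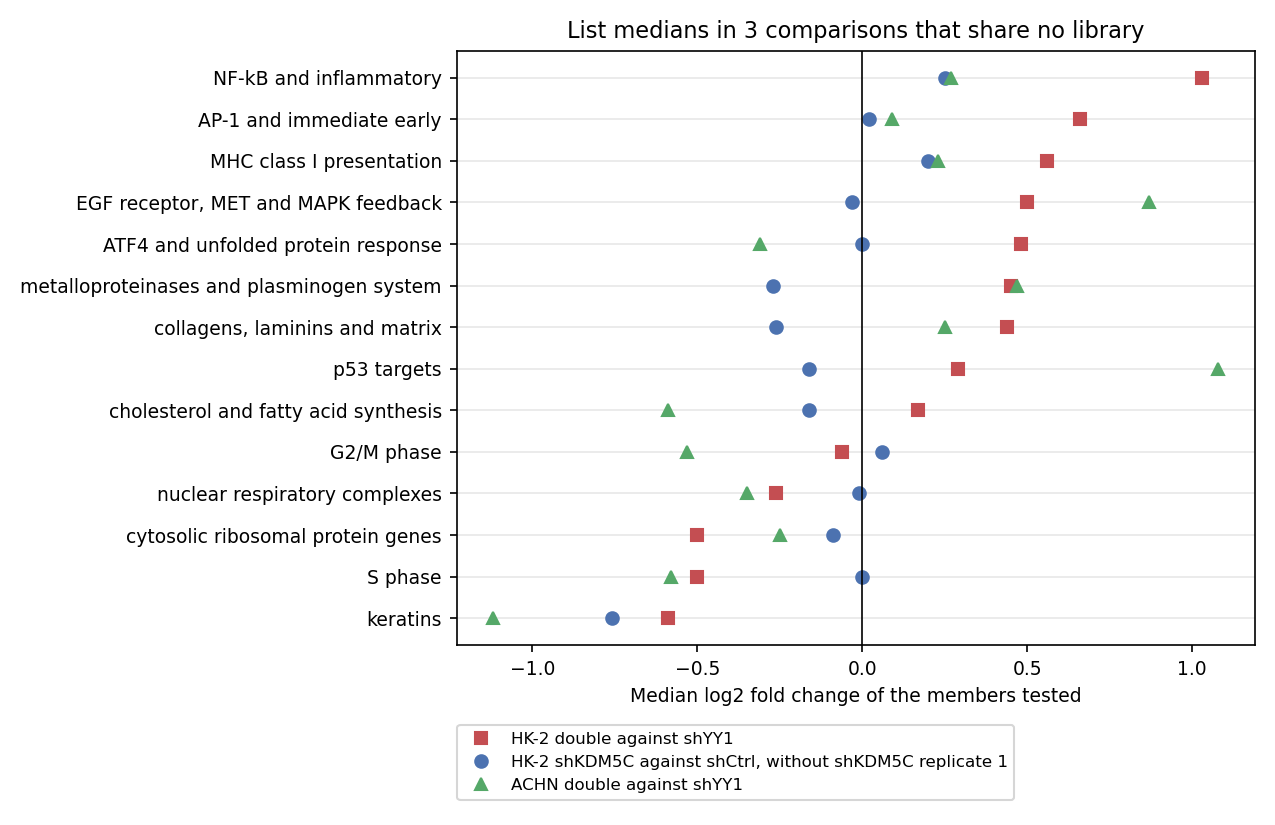
Median log2 fold change (x axis) of the tested members of 14 lists in HK-2 double knockdown against shYY1 (squares), HK-2 shKDM5C against shCtrl without shKDM5C replicate 1 (circles) and ACHN double knockdown against shYY1 (triangles). S phase genes are at -0.50, 0.00 and -0.58, and ATF4 genes at 0.48, 0.00 and -0.31.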

How the data were processed

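RNA-seq read counts per gene were used as deposited, 1 table for each of the 24 libraries. The authors prepared paired-end libraries and, per their processing notes, aligned reads with HISAT2 2.0.5 to GRCh38 and counted them over 60675 Ensembl 84 genes with featureCounts. These notes give featureCounts 1.5.0-p3, whereas the file headers name 2.0.1, counted without strand, so reads of overlapping antisense genes cannot be told apart. Groups were taken from the labels. The double-knockdown and shYY1 counts were compared in edgeR 4.0.16 (R 4.3.3) with its filter on low counts, TMM factors and quasi-likelihood F test, fitted to these 6 libraries across all genes with Benjamini-Hochberg adjustment at 0.05, where the study's methods name DESeq2. The other comparisons used the same test. CPM used TMM factors within a cell line. The pipeline was tested on simulated data. DESeq2 1.42.0, other scalings and filters, removal of a spline trend with gene length and leaving out each library were the alternatives.

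The members, the 37 gene lists and the tests were chosen with earlier results of these data known. Named genes were the targets and their relatives, 6 genes the study names, and 12 genes in each direction with the largest change (10 CPM or more, no overlap). To these came up to 3 called members per list and direction (3 CPM or more), and 3 per direction for each difference of effects. Genes picked for a difference also had to be called in the double-knockdown comparison, with 10 CPM or more and no overlap there. One of the 1125 list entries had no matching symbol, and genes without a symbol held 0.243% of counts. RefSeq promoters (GRCh38.p14) matched 11172 of the 15947 genes tested by symbol.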

Additional observations from a re-analysis of the deposited data

Results flagged for a closer look

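The effect of added KDM5C depletion differed between HK-2 and ACHN cells for 8253 genes and with the state of YY1 in HK-2 cells for 1642 genes, each by a test of the difference itself (edgeR, adjusted p under 0.05). Both tests share the 6 HK-2 libraries of the report's comparison. Groups of 3 libraries were too small for a test of single outlying libraries.

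Between the lines, the effect in HK-2 minus that in ACHN cells was -0.68 for KDM5C, -0.22 for KDM5A, -0.57 for KDM5B and -1.58 for YY2 on the log2 scale. Of the genes the study names, KNTC1 (0.67), FOXM1 (0.63), SMC2 (0.48) and SMC4 (0.44) had a higher and LMNB1 (-0.31) a lower effect in HK-2 cells. Genes with large changes also differed, with -3.22 for ZBED2, -0.48 for ID3, -0.52 for KITLG, 3.60 for WNT9A and 4.35 for IL11. The KDM5A difference was not called in 9 of 16 alternatives (-0.28 to -0.15), and the others named here were called in all 16.

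With minus without YY1 knockdown in HK-2 cells, the difference of log2 fold changes was 4.36 for MMP1, 4.16 for IL11, 4.06 for WNT9A and 0.98 for VSTM4. It was -3.88 for ZBED2, -2.89 for ID3, -2.07 for KITLG, -1.19 for SMC2, -1.07 for YY2, -0.73 for EPB41L3 and -0.70 for JAM3. SMC2 and YY2 were each not called in 10 of 16 alternatives, EPB41L3 in 2 and JAM3 in 1, and the others were called in all 16. A second infection and a selection for green fluorescence, on the double-knockdown side alone, cannot be told apart from the state of YY1 here. Without shKDM5C replicate 1 the value for SMC2 was -0.72, and those for MMP1, IL11, WNT9A, ZBED2, ID3 and KITLG were 4.57, 3.74, 3.81, -3.91, -3.26 and -1.78.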

How the results depend on the processing

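Counts of downregulated and upregulated genes stayed within 1.5 times the reported ones except with all 4 HK-2 groups in 1 fit, which called 1776 and 1989, and 217 genes were downregulated past the fold threshold with no filter on low counts. YY1 had a log2 fold change of 0.21 with all 4 groups and 0.14 with the length trend taken out, and lost its call in both. The number of genes whose effect differed with YY1 knockdown ran from 957 (without double-knockdown replicate 1) to 5065 (without shKDM5C replicate 1) when single libraries were left out. Correlations across genes were 0.294 with the shKDM5C effect and 0.263 with ACHN cells among genes of at least 10 CPM. Of the 201 named genes, 154 kept direction and side of the threshold in every alternative, 45 lost a call in at least 1, 2 gained one and 0 reversed. Causes were not tested. Scaling by RLE or by total counts moved the median of all genes by -0.006 and 0.001. Replicate numbers did not pair the samples: deviations of same-numbered samples had correlations of -0.0422, 0.0299 and 0.0504. With the replicate block 3745 genes were downregulated, 4043 upregulated and 1214 differed with YY1 knockdown, and KDM5C was at -1.83. Precision rests on 3 libraries a group, and genes of few reads, such as YY2 and DCN, are the least certain.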

Other observations

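Cytosolic ribosomal protein genes, a list drawn up after the values had been seen, were lower almost throughout: 77 of 79 tested were downregulated in double-knockdown HK-2 cells and 0 upregulated, with a median log2 fold change of -0.50 and a range from -1.67 to -0.06, beside 22.9% and 24.8% of all genes. Their products build both ribosomal subunits. Since the list was chosen for these values, no test is given. With the trend of gene length taken out the median was -0.48, and 56 to 77 members were lower in the alternatives. In shKDM5C against shCtrl without shKDM5C replicate 1, 21 of 79 were lower and 1 higher (median -0.09), and in ACHN double-knockdown cells 44 were lower and 17 higher (median -0.25).

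Processed pseudogenes of any parent gene, copies without introns that can share its reads, were also lower more often than higher, 132 against 24 of 500 tested (median -0.28). Copies of ribosomal protein genes were not counted apart. Whether shared reads carry this was not tested.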
